A study of Sorghum bicolor with 12 samples.

Results

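Drought closes stomata, slows leaf growth and shifts leaf metabolism, and a plant short of water lowers the mRNA of many genes of growth, photosynthesis and primary metabolism while it raises others for protection. Here 37 of 27989 transcripts of Sorghum bicolor were at least 4-fold lower in the mean of drought stressed (DS) plants than in the mean of well watered (WW) plants in both genotypes studied. They were chosen by that ratio of means in RPKM, a read number scaled by transcript length and library total, with reads in all 4 groups and a mean of at least 1 RPKM in the WW plants of both genotypes. The drought ratios of the 37 are therefore a description, with no test, and what they do between genotypes and in neighbouring genes was tested.

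The groups were DS plants of IS22330, WW plants of IS22330, DS plants of IS20351 and WW plants of IS20351, each with 3 biological replicates. IS22330 is the tolerant and IS20351 the sensitive of these genotypes, both of the durra race. All plants grew in pots outdoors with a single plant per pot and were sampled at 42 days of age. DS plants had been held at a fraction of transpirable soil water (FTSW) of 0.2 for 9 days, while WW plants were kept near 0.7 by daily watering. RNA came from tissue described as the leaf meristem, the dividing zone of the leaf, and the labels name no transgene or mutation. The small chain of RuBisCO, the enzyme that fixes carbon dioxide in mature leaf cells, reached 642 to 1804 RPKM in WW libraries. Markers of dividing cells could not be checked, because the sources used here pair no such product with these transcripts. In a bulk sample, fewer cells of a type and less RNA per cell cannot be told apart.

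The libraries had totals of 26398759 to 28680141 unique reads each, by which RPKM was scaled, and these are not all reads sequenced. Their reads were solved from the 2 means that were deposited for each group, the unique reads and the RPKM. Since the files give no replicate numbers, libraries were lettered within each group from the smallest total (a) to the largest (c), and equal letters join no plants. Library c of the DS plants of IS22330 stood apart from its group. Its 19 light reaction transcripts, which code for the photosystems and their partners, summed to 10803 RPKM, against 1814 and 2017 RPKM in DS libraries a and b and 5036 to 8511 RPKM in the WW libraries of IS22330. In IS20351 the same sum was 1844 to 2154 RPKM in DS and 9874 to 12887 RPKM in WW libraries. The study listed these transcripts as changed by drought in these same samples, so that split in IS20351 is no independent evidence. All 19 had reads in every library. The RuBisCO small chain had 1450 RPKM in that library c, against 179 and 182 RPKM in DS libraries a and b. By these values it lies with the WW libraries, and whether it carries its right label could not be settled from the deposited means, so that every DS mean and ratio of IS22330 depends on that label. The values of named members are therefore printed library by library, and the summaries are given without it as well.

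Fewer transcripts were 4-fold lower in the means of both genotypes than in those of either, and these lists carry no test. Among 16342 transcripts with reads in all groups and at least 1 RPKM in both WW groups, 158 (0.967%) were 4-fold lower in the DS mean of IS22330 and 507 (3.10%) in that of IS20351. The 37 on both lists made up 23.4% of the IS22330 list and 7.30% of the IS20351 list. Without DS library c of IS22330, 234 transcripts met the rule in both genotypes, 31 of the 37 among them. The mirrored rule, 4-fold higher in DS plants of both genotypes with at least 1 RPKM in both DS groups, found 138 transcripts. A further 334 transcripts were 4-fold lower in both genotypes but stayed under 1 RPKM in a WW group. The rule missed Sb10g024710.1 because it had no reads in DS plants of IS20351, which had 32, 17 and 13 reads of it when well watered, while IS22330 had 3, 4 and 21 reads in DS and 16, 57 and 48 in WW libraries.

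**Figure D1:**
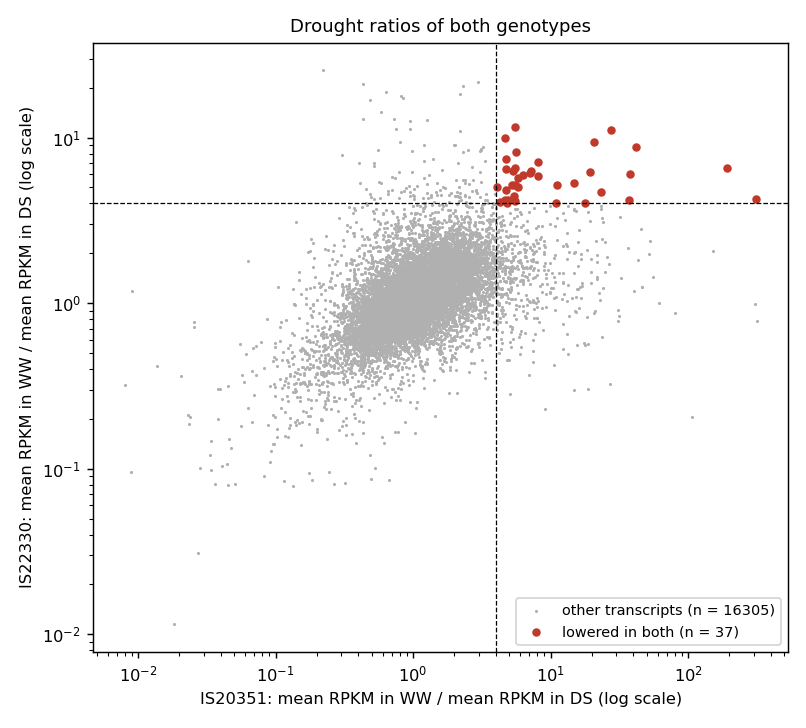
Ratio of the WW mean to the DS mean in RPKM, on log scales, in IS20351 (x axis) and IS22330 (y axis) for 16342 transcripts with reads in all groups and at least 1 RPKM in both WW groups. The dashed lines mark 4-fold, and the 37 transcripts in red reach 11.6-fold in IS22330 and 309.6-fold in IS20351.

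The ratio of WW to DS means ran over 4.01 to 11.6 in IS22330, with a median of 5.67, and over 4.11 to 309.6 in IS20351, with a median of 5.82. It was the larger in IS22330 for 9 of the 37 and in IS20351 for 28. Over 10-fold were 2 transcripts in IS22330 and 13 in IS20351, and 3 were over 8-fold in both genotypes. This order turned without DS library c of IS22330, where the ratio was the larger in IS22330 for 25 and in IS20351 for 12, and where 19 were over 10-fold in IS22330 and 13 over 8-fold in both. It also turned without WW library b of IS22330, with 21 larger in IS22330 and 16 in IS20351, while without WW library a these were 5 and 32. Their WW levels spanned a wide range: 5 reached at least 100 RPKM in a genotype, 13 lay between 10 and 100 RPKM in the higher genotype, and 19 stayed under 10 RPKM in both. The median transcript length was 1094 bases, against 1424 bases over the 19022 transcripts tested below. The members nearest to the limit were Sb01g001180.1, Sb01g018230.1, Sb07g004470.1, Sb03g045090.1 and Sb07g028780.1, whose smaller ratio was 4.01, 4.03, 4.04, 4.09 and 4.11. Just outside it lay Sb07g020065.1, Sb09g030130.1, Sb03g028620.1, Sb02g003530.1 and Sb10g017800.1, with 3.93, 3.92, 3.87, 3.85 and 3.85.

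The annotation used here names 4 of the 37: a beta amylase, an isoflavone reductase, a terpene synthase and a glutaredoxin. Each name is given there with its source species, maize, rice or Arabidopsis. The study chose the transcripts it annotated on these same samples. The direction of the other family members named below is therefore no independent evidence. The other 33 are given by their identifier, and no function is attached to them.

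Sb02g035600.1 is named beta amylase (BAM) with maize as its source. Beta amylases release maltose from starch, the step by which a leaf draws on its starch at night. It had 2.68, 12.8 and 17.1 RPKM in the DS libraries of IS22330, in the order a, b, c, against 112, 13.97 and 72.3 RPKM in WW libraries. In IS20351 it had 8.22, 6.36 and 6.28 RPKM in DS libraries, against 92.6, 25.0 and 31.2 RPKM in WW libraries. The groups were apart in IS20351, while in IS22330 WW library b lay below DS library c. The means were 10.9 ± 7.40 RPKM in DS and 66.2 ± 49.4 RPKM in WW plants of IS22330 (SD, n = 3 each), a ratio of 6.10, and the ratio in IS20351 was 7.13. The 2 other amylases of the annotation were higher in the DS means. An alpha amylase, Sb03g032830.1, which cuts starch chains from within, had 8.996, 18.4 and 19.8 RPKM in DS libraries of IS20351, against 3.26, 2.73 and 4.52 RPKM in WW libraries. It rose in IS20351 (log2 ratio 2.07, SE 0.43, edgeR adjusted p = 0.0404), and the adjusted p stayed under 0.05 in 4 of 12 omissions of a library, with a range of 0.00523 to 0.134. In IS22330 its log2 ratio was 1.54 (SE 0.43, edgeR adjusted p = 0.384). A second beta amylase, Sb01g019850.1, spanned 22.6 to 435 RPKM in DS and 1.04 to 164 RPKM in WW libraries of IS22330, and its log2 ratio was 1.37 there and 2.77 in IS20351, with edgeR adjusted p of 0.764 and 0.321. A second isoform of the member gene, Sb02g035600.3, stayed under 1 RPKM in all 12 libraries.

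Sb03g008760.1 is named a putative isoflavone reductase with maize as its source. Enzymes of this name reduce isoflavones on the way to legume phytoalexins, and related proteins in other plants act on further phenolic compounds. It was among the 5 most abundant of the 37 and had 14.9, 23.4 and 66.9 RPKM in DS libraries of IS22330, against 126, 121 and 194 RPKM in WW libraries. In IS20351 its levels were 21.9, 25.3 and 43.1 RPKM in DS libraries, against 92.5, 199.6 and 126 RPKM in WW libraries. All 3 DS libraries lay below all 3 WW libraries in each genotype. The ratios were 4.19 in IS22330 and 4.63 in IS20351. Of 4 other reductases of flavonoid synthesis in the annotation, 2 passed the filter on low values. At an edgeR adjusted p under 0.05, 1 of them rose in IS20351 (1.30% of tested transcripts). This was the leucoanthocyanidin reductase Sb06g029520.1, an enzyme of the proanthocyanidin pathway, with 39.6, 44.3 and 40.1 RPKM in DS libraries of IS20351, against 0.321, 0.859 and 0.849 RPKM in WW libraries (log2 ratio 5.82, SE 1.15, edgeR adjusted p = 0.0400, and 0.00240 to 0.134 when single libraries were left out). In IS22330 it had 25.0, 22.2 and 0.725 RPKM in DS libraries, against 0.486, 3.60 and 0.783 RPKM in WW libraries, so that library c lay among the WW libraries. Its log2 ratio there was 3.21 (SE 1.02, edgeR adjusted p = 0.399). At an adjusted p under 0.05 in IS22330, DESeq2 called 1 of the 2 reductases higher (0.515% of tested transcripts) and limma 0.

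Sb07g004470.1 is named terpene synthase 10 with rice as its source. Terpene synthases build the carbon skeletons of volatile and defensive terpenes from prenyl diphosphates. It had 0.658, 2.37 and 6.92 RPKM in DS libraries of IS22330, against 26.4, 2.05 and 11.7 RPKM in WW libraries. The IS20351 libraries gave 0.269, 0.522 and 0.677 RPKM in DS, against 2.53, 1.11 and 12.4 RPKM in WW plants. DS and WW libraries were apart in IS20351 only, and in IS22330 DS libraries b and c lay above WW library b. The ratios were 4.04 and 10.9 in IS22330 and IS20351. Besides this member the annotation lists 7 terpene synthases, of which 6 were tested. At an adjusted p under 0.05, 0 of them changed in either genotype in edgeR, DESeq2 or limma. At an unadjusted p under 0.05 in edgeR, 1 was lower in IS22330 (5.57% of tested transcripts) and 1 in IS20351 (14.2%). A second transcript with the same name, Sb07g004485.1, had a log2 ratio of -0.73 in IS22330 and -2.27 in IS20351 (edgeR adjusted p 0.803 and 0.213).

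Sb08g017090.1 is named a glutaredoxin family protein with Arabidopsis as its source. Glutaredoxins are small proteins that reduce disulfides with glutathione, and plants have many of them. It had no reads in DS libraries a and b of IS22330 and 4.46 RPKM in library c, against 1.61, 27.0 and 13.1 RPKM in WW libraries. Its IS20351 values were 0.715, 0.694 and 0 RPKM in DS libraries, against 12.3, 13.97 and 2.74 RPKM in WW libraries. The ratios of means were 9.36 in IS22330 and 20.6 in IS20351. Its identifier lies next to that of another glutaredoxin, Sb08g017120.1, with 1.20, 0.478 and 2.79 RPKM in DS and 2.96, 6.31 and 2.86 RPKM in WW libraries of IS22330. In IS20351 this neighbour had 1.12, 0.402 and 0.396 RPKM in DS and 3.85, 7.41 and 1.18 RPKM in WW libraries (log2 ratio -2.79, SE 0.85, edgeR adjusted p = 0.0804). The 2 further glutaredoxins were listed with log2 ratios in IS20351 of -2.95 for Sb03g014800.1 and -2.62 for Sb08g017170.1, at edgeR adjusted p of 0.0900 and 0.0976. In IS22330 these were -0.41 and -0.35. Both had their highest DS value of IS22330 in library c, 343 and 70.7 RPKM, against WW values of 143 to 310.2 RPKM and 34.1 to 63.6 RPKM. At an adjusted p under 0.05 in IS20351, DESeq2 called all 3 other glutaredoxins lower (9.02% of tested transcripts). There edgeR and limma called 0 of them lower (2.42% and 2.87%). In IS22330 DESeq2 called 0 lower (0.520%), and edgeR had 0 even at an unadjusted p under 0.05 (5.57%).

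The most abundant members all lie on chromosome 1 apart from the isoflavone reductase. Sb01g001180.1 had 29.2, 61.8 and 134 RPKM in DS libraries of IS22330, against 380.0, 119 and 403 RPKM in WW libraries. In IS20351 it had 32.2, 60.4 and 64.7 RPKM in DS libraries, against 223, 416 and 115 RPKM in WW libraries. Its mean was 75.0 ± 53.6 RPKM in DS and 300.4 ± 158 RPKM in WW plants of IS22330 (SD, n = 3 each), which made it the member closest to the limit. The gene model that follows it is also a member. Sb01g001200.1 had 10.2, 16.2 and 29.1 RPKM in DS libraries of IS22330, against 227, 35.6 and 379.9 RPKM in WW libraries, and the groups did not overlap. In IS20351 its levels were 4.81, 11.4 and 25.1 RPKM in DS libraries, against 90.0, 114 and 25.2 RPKM in WW libraries. Its ratio of 11.6 was the highest of the 37 in IS22330.

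Sb01g018230.1 had 2.72, 7.41 and 83.5 RPKM in DS libraries of IS22330, against 193, 56.2 and 128 RPKM in WW libraries. The IS20351 libraries gave 8.43, 36.1 and 5.04 RPKM in DS, against 293, 171 and 424 RPKM in WW plants. Its ratio of 4.03 in IS22330 rested on a DS mean to which library c gave most, and its ratio in IS20351 was 17.9. Sb01g031030.1 had 17.1, 13.5 and 109 RPKM in DS libraries of IS22330, against 559, 37.3 and 125 RPKM in WW libraries. In IS20351 it was even within the groups, with 14.4, 15.8 and 12.7 RPKM in DS and 58.2, 68.9 and 96.1 RPKM in WW libraries. The ratios were 5.15 and 5.20 in IS22330 and IS20351.

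**Figure D2:**
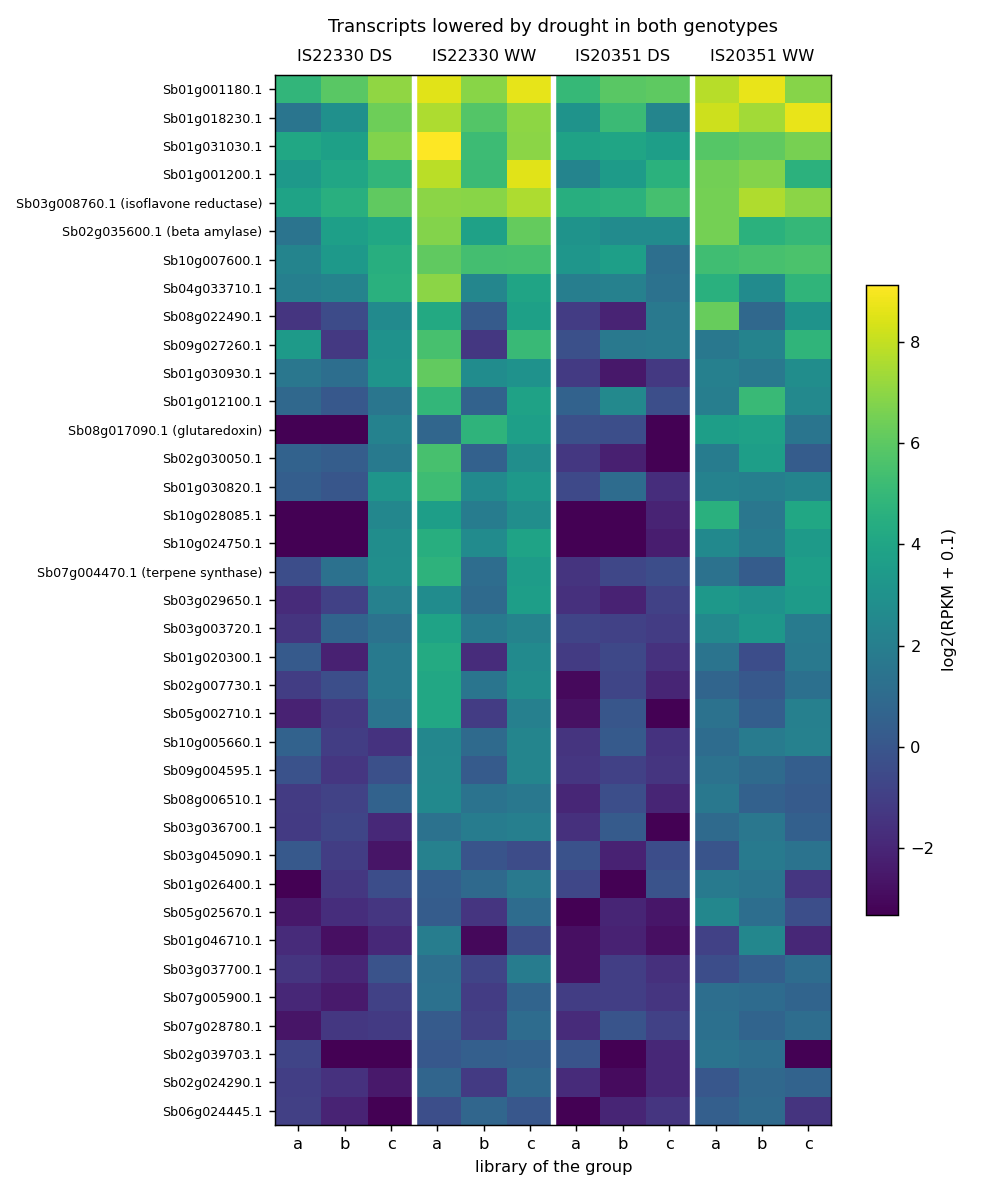
RPKM of the 37 transcripts in the 12 libraries as log2(RPKM + 0.1), with transcripts in rows from the highest to the lowest WW mean and the libraries a, b and c of each group in columns. Most rows are dark in the 3 DS libraries of IS20351 and in DS libraries a and b of IS22330, while DS library c and WW library b of IS22330 are close to each other in many rows.

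By the smaller of the ratios of the genotypes, the leading members were mostly transcripts with low DS levels. Sb01g046710.1 led with ratios of 11.1 in IS22330 and 27.5 in IS20351. It had 0.192, 0.0425 and 0.170 RPKM in DS libraries of IS22330, against 3.82, 0.0207 and 0.640 RPKM in WW libraries. Its IS20351 values were 0.0442, 0.129 and 0.0423 RPKM in DS libraries, against 0.424, 5.33 and 0.163 RPKM in WW libraries. A single WW library in each genotype carried its WW mean, and it was the 1 member too low to be tested. Sb02g030050.1 had 1.41, 1.18 and 3.43 RPKM in DS libraries of IS22330, against 44.7, 1.34 and 7.09 RPKM in WW libraries. In IS20351 it had 0.301, 0.113 and 0 RPKM in DS libraries, against 3.69, 12.4 and 1.15 RPKM in WW libraries, a ratio of 41.6.

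Sb05g002710.1 had 0.130, 0.325 and 2.62 RPKM in DS libraries of IS22330, against 17.4, 0.358 and 4.21 RPKM in WW libraries. In IS20351 its levels were 0.0451, 0.920 and 0 RPKM in DS libraries, against 2.46, 1.20 and 4.24 RPKM in WW libraries. Its groups were apart in IS20351 only. Sb02g007730.1 had 0.386, 0.698 and 3.25 RPKM in DS libraries of IS22330, against 17.7, 2.81 and 6.82 RPKM in WW libraries. The IS20351 libraries gave 0.0250, 0.511 and 0.144 RPKM in DS, against 1.56, 0.979 and 2.35 RPKM in WW plants. DS library c of IS22330 again lay above WW library b. Sb01g030930.1 had 2.92, 2.16 and 8.46 RPKM in DS libraries of IS22330, against 69.6, 6.55 and 8.05 RPKM in WW libraries. Its IS20351 values were 0.338, 0.0728 and 0.323 RPKM in DS libraries, against 4.20, 3.18 and 6.87 RPKM in WW libraries. Its ratio was 6.22 in IS22330 and 19.4 in IS20351.

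Both members with the largest ratios in IS20351 had almost no DS reads there. Sb10g024750.1 had no reads in DS libraries a and b of either genotype and 6.68 RPKM in library c of IS22330, against 22.5, 6.30 and 14.98 RPKM in WW libraries of IS22330. In IS20351 a single DS read stood against 201 WW reads. Pooled over the group and scaled by library totals, these reads gave a ratio of 193. Its 95% exact interval of 34.2 to 7657 covers counting error only. Sb10g028085.1 had the same form, with no reads in DS libraries a and b and 5.40 RPKM in library c of IS22330, against 12.3, 3.68 and 7.01 RPKM in WW libraries. In IS20351 it had 2 DS reads and 638 WW reads, a pooled ratio of 306 with an interval of 84.4 to 2534. Its ratio of means there was 309.6. Both carry their whole IS22330 DS mean in library c. Sb05g025670.1 had 3 DS and 117 WW reads in IS20351, a pooled ratio of 37.4 with an interval of 12.5 to 184. In IS22330 it had 0.0715, 0.214 and 0.285 RPKM in DS libraries, against 1.15, 0.278 and 2.01 RPKM in WW libraries. Counts of 3 DS reads also stood behind Sb02g039703.1 in IS22330 (pooled ratio 7.53, interval 2.27 to 39.2) and Sb06g024445.1 in IS20351 (pooled ratio 8.00, interval 2.44 to 41.4).

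Sb10g005660.1 and Sb09g004595.1, both at low levels, were among the 9 members whose DS and WW libraries were apart in both genotypes. Sb10g005660.1 had 1.41, 0.383 and 0.255 RPKM in DS libraries of IS22330, against 5.39, 1.86 and 4.96 RPKM in WW libraries. In IS20351 it had 0.266, 1.03 and 0.254 RPKM in DS libraries, against 2.04, 3.46 and 4.28 RPKM in WW libraries. Sb09g004595.1 had 0.787, 0.286 and 0.713 RPKM in DS libraries of IS22330, against 5.45, 1.11 and 5.06 RPKM in WW libraries, and 0.297, 0.433 and 0.284 RPKM in DS against 2.49, 1.87 and 1.23 RPKM in WW libraries of IS20351. With Sb01g001200.1, these were the 3 members that met the rule whichever of the 12 libraries was left out. The DS libraries of Sb03g003720.1 and Sb03g029650.1 are described with the genotypes. Sb03g003720.1 had WW means of 7.55 RPKM in IS22330 and 6.29 RPKM in IS20351, at ratios of 5.28 and 14.8. Sb03g029650.1 had WW means of 6.99 RPKM in IS22330 and 9.74 RPKM in IS20351, at ratios of 4.21 and 37.4. The remaining 17 members had DS means of 0.162 to 12.4 RPKM, against WW means of 1.09 to 51.6 RPKM, in IS22330, at ratios of 4.09 to 9.98. In IS20351 these 17 had DS means of 0.126 to 8.08 RPKM, against WW means of 1.14 to 44.7 RPKM, at ratios of 4.11 to 23.1.

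Whether DS and WW libraries overlapped differed between the genotypes. In IS22330 all 3 DS libraries lay below all 3 WW libraries for 12 of the 37, against 9.13% of the 19022 tested transcripts, and in IS20351 for 31, against 15.2%. The groups were apart in both genotypes for 9 members and in neither for 3, Sb01g012100.1, Sb08g022490.1 and Sb09g027260.1. The rule used this contrast, so nothing is read from these counts against their background. In IS22330 DS library c reached or passed the lowest WW library for 23 members, DS library a for 7 and DS library b for 3. With library c set aside, DS libraries a and b lay below all WW libraries for 29, against 19.9% of tested transcripts. WW library b lay below the highest DS library for 24. DS libraries a and b were below WW libraries a and c for 36 of the 37.

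The 37 together gave the same picture. Their summed level in IS22330 was 113, 165 and 569 RPKM in DS libraries, against 2214, 511 and 1566 RPKM in WW libraries. In IS20351 it was 113, 193 and 176 RPKM in DS libraries, against 1103, 1183 and 1035 RPKM in WW libraries. WW library b of IS22330 was thus below DS library c. The median log2 ratio of the 37 to the WW mean of the genotype was -3.36, -3.36 and -1.53 in DS libraries and 0.62, -1.66 and 0.03 in WW libraries of IS22330, and -3.27, -2.45 and -2.96 in DS libraries of IS20351. The 138 transcripts raised in both genotypes had medians of 3.55 and 2.70 in DS libraries a and b of IS22330 but -1.83 in library c, below their WW mean. Library c was the highest DS library for 28 members (29.2% of tested transcripts) and stood at least 2-fold over both other DS libraries for 22 (9.90%). WW library b was the lowest for 31 (40.1%) and WW library a the highest for 24 (36.3%). The light reaction sums of WW libraries a, b and c were 7986, 5036 and 8511 RPKM in IS22330. Leaving libraries out moved the ratios of IS22330. The median ratio of WW to DS means over the 37 was 11.04 without DS library c, which leaves 3 members with no DS reads, 3.76 without WW library a, and 6.96 without WW library b, against 5.67 with all libraries.

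**Figure D3:**
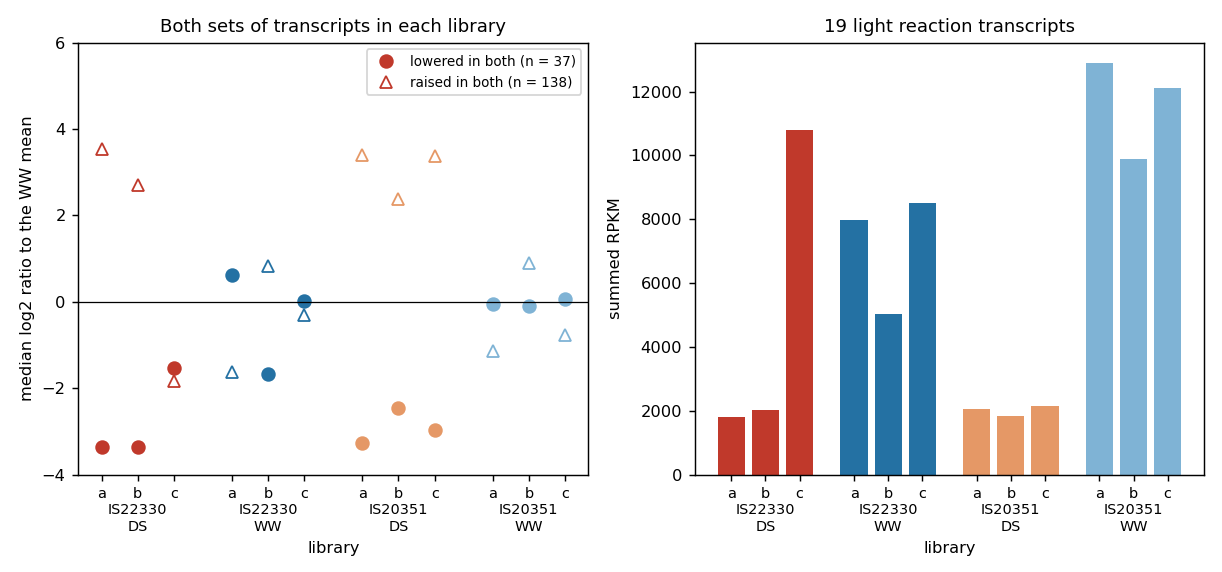
Left, median log2 ratio of each library to the WW mean of its genotype, with 0.1 RPKM added to both, for the 37 transcripts lowered (filled circles) and the 138 raised (open triangles) in both genotypes. Right, summed RPKM of 19 light reaction transcripts, 10803 in DS library c of IS22330 against 1814 and 2017 in DS libraries a and b.

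Membership depended on single libraries. Of the 37, 34 no longer met the rule when some library was left out. Leaving out DS library c of IS22330 gave 234 transcripts, 31 of the 37 among them, and leaving out WW library b gave 66 with 36 of the 37. Leaving out WW library a of IS22330 gave 19 transcripts, 16 of the 37 among them, so that 21 members rested on that plant. Without DS library a of IS22330 the count was 23, all members, and without DS library b of IS20351 it was 68 with 34 members. The other 7 omissions gave 33 to 43 transcripts, with 22 to 33 of the 37 among them. With WW library a and DS library c of IS22330 both left out, a setting chosen after seeing the data, 179 transcripts met the rule, 25 of them members. Group medians in place of means also gave 179, with 24 of the 37.

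**Figure D4:**
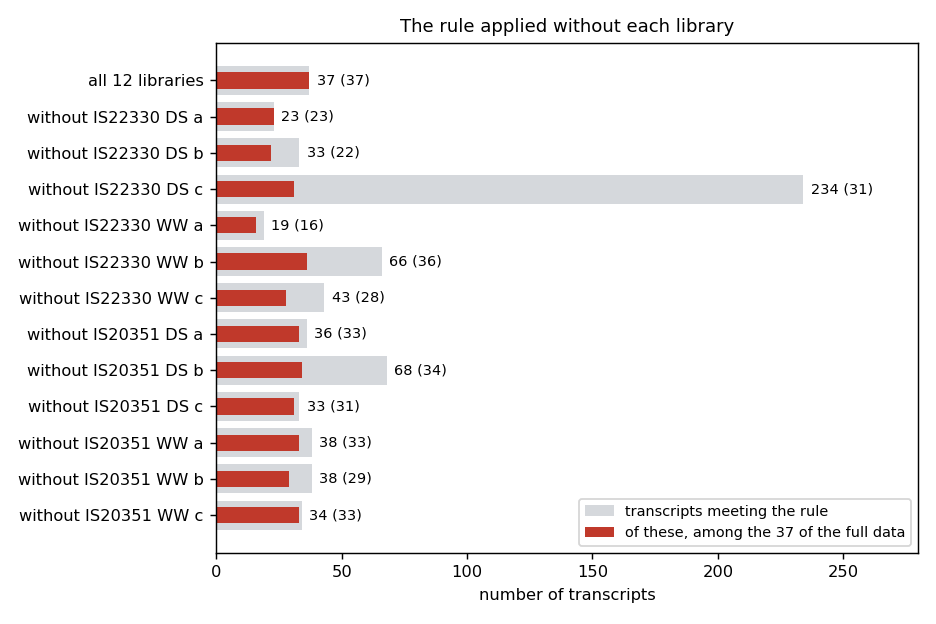
Number of transcripts that met the rule with all 12 libraries and without each library (grey bars), and how many of these were among the 37 of the full data (red bars, second number). The count was 234 without DS library c and 19 without WW library a of IS22330.

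The genotypes were then compared within each water treatment. The rule set no ratio between genotypes, but it asked for at least 1 RPKM in the WW plants of both and for reads in all 4 groups, which removes transcripts found in a single genotype. Shares are therefore given both over all 19022 tested transcripts and over the 16336 of them that met this level part of the rule. Neither share carries the ratio part of the rule, which used the same 4 group means. WW library a of IS22330 was at least 2-fold over both other WW libraries for 13 members, against 5.16% of tested transcripts. The counts are therefore set beside the shares, and nothing is concluded from a difference between them. The stricter thresholds took their cutoffs from the study, an adjusted p up to 0.001 and a log2 ratio at or beyond 2 in either direction. The study applied them to its own test with a Benjamini-Yekutieli adjustment, so its calls and those made here are unlike measures. In DS plants 0 of 36 tested members differed between IS22330 and IS20351 at these thresholds in edgeR, against 1.10% of tested transcripts and 0.239% of those at level. At an adjusted p under 0.05 there was 1 (6.27% and 3.60%), and at an unadjusted p under 0.05 there were 8 (17.5% and 14.3%). DESeq2 also gave 0 at the stricter thresholds (4.17% and 1.35%), 5 at an adjusted p under 0.05 (10.7% and 7.52%) and 9 at an unadjusted p under 0.05 (20.2% and 16.9%). In limma these were 0 (2.13% and 0.343%), 1 (6.41% and 3.39%) and 3 (16.4% and 12.9%).

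In WW plants 0 members passed the stricter thresholds in edgeR, DESeq2 or limma, against 0.936%, 3.60% and 1.98% of tested transcripts and 0.147%, 0.759% and 0.214% of those at level. At an adjusted p under 0.05 there were also 0 in each tool, against 4.73%, 7.94% and 5.20% of tested transcripts and 1.97%, 4.47% and 2.08% of those at level. At an unadjusted p under 0.05 there were 2 in edgeR (14.4% and 10.4%), 2 in DESeq2 (16.7% and 12.6%) and 1 in limma (14.1% and 9.94%). With 36 members, shares of this size at the stricter thresholds amount to less than 1 transcript at level in each tool.

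The member that passed in DS plants was Sb01g030930.1. Its 2.92, 2.16 and 8.46 RPKM in DS libraries of IS22330 stood against 0.338, 0.0728 and 0.323 RPKM in those of IS20351, with no overlap. The log2 ratio of IS22330 to IS20351 was 4.32 (SE 1.09, edgeR adjusted p = 0.0389). The adjusted p ran over 0.00900 to 0.129 when single libraries were left out, and the log2 ratio without DS library c of IS22330 was 3.31 (edgeR adjusted p = 0.109). It was also over 0.05 without DS library a, b or c, or WW library a, b or c, of IS20351, or without DS library a of IS22330. In WW plants the same transcript had 69.6, 6.55 and 8.05 RPKM in IS22330, against 4.20, 3.18 and 6.87 RPKM in IS20351 (log2 ratio 2.48, SE 0.94, edgeR adjusted p = 0.226). DESeq2 gave it no adjusted p in either comparison.

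The 7 others with an unadjusted p under 0.05 in DS plants were all higher in IS22330 and had edgeR adjusted p of 0.151 to 0.251. They were Sb02g007730.1, Sb02g030050.1, Sb03g003720.1, Sb03g029650.1, the terpene synthase Sb07g004470.1, Sb10g024750.1 and Sb10g028085.1. The log2 ratio of the terpene synthase was 2.90 (SE 1.18, edgeR adjusted p = 0.218), and 1.53 without DS library c of IS22330 (edgeR adjusted p = 0.608). Sb03g029650.1 had 0.186, 0.434 and 4.36 RPKM in DS libraries of IS22330, against 0.225, 0.125 and 0.431 RPKM in those of IS20351, so that library c alone stood apart, and its log2 ratio was 2.83 with and 0.15 without that library. Sb03g003720.1 had 0.264, 1.52 and 2.504 RPKM in DS libraries of IS22330, against 0.480, 0.433 and 0.361 RPKM in those of IS20351, at log2 ratios of 1.87 with and 0.98 without library c. Sb02g007730.1 had 2.88 with and 1.23 without it, and Sb02g030050.1 had 4.02 and 3.21. The 5 that passed an adjusted p under 0.05 in DESeq2 were Sb02g007730.1, Sb02g030050.1, Sb03g029650.1, Sb07g004470.1 and Sb10g024750.1, with DESeq2 adjusted p of 0.0334, 0.00849, 0.0460, 0.0431 and 0.0154. Both chromosome 10 transcripts had their only IS22330 DS reads in library c, and their log2 ratios of 5.78 and 5.23 turned to -1.88 and -2.68 without it. In WW plants Sb02g007730.1 was the other member with an unadjusted p under 0.05, at a log2 ratio of 2.40 (SE 1.00, edgeR adjusted p = 0.284).

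In DS plants 29 of 36 members were higher in IS22330 by the fitted log2 ratio, with a median of 1.14, while 51.1% of tested transcripts were higher with a median of 0.02. Without DS library c of IS22330 these were 19 of 36 and 0.07, and 1 member, Sb01g030930.1, had an unadjusted p under 0.05, against 16.3% of tested transcripts. In WW plants 23 of 36 were higher in IS22330, with a median of 0.29 against 0.01 over tested transcripts. Without WW library a of IS22330 this was 17 of 35 with a median of -0.03, and without WW library b it was 25 of 35 with a median of 0.56. The direction of the members as a group between genotypes thus moved with single libraries of IS22330.

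**Figure D5:**
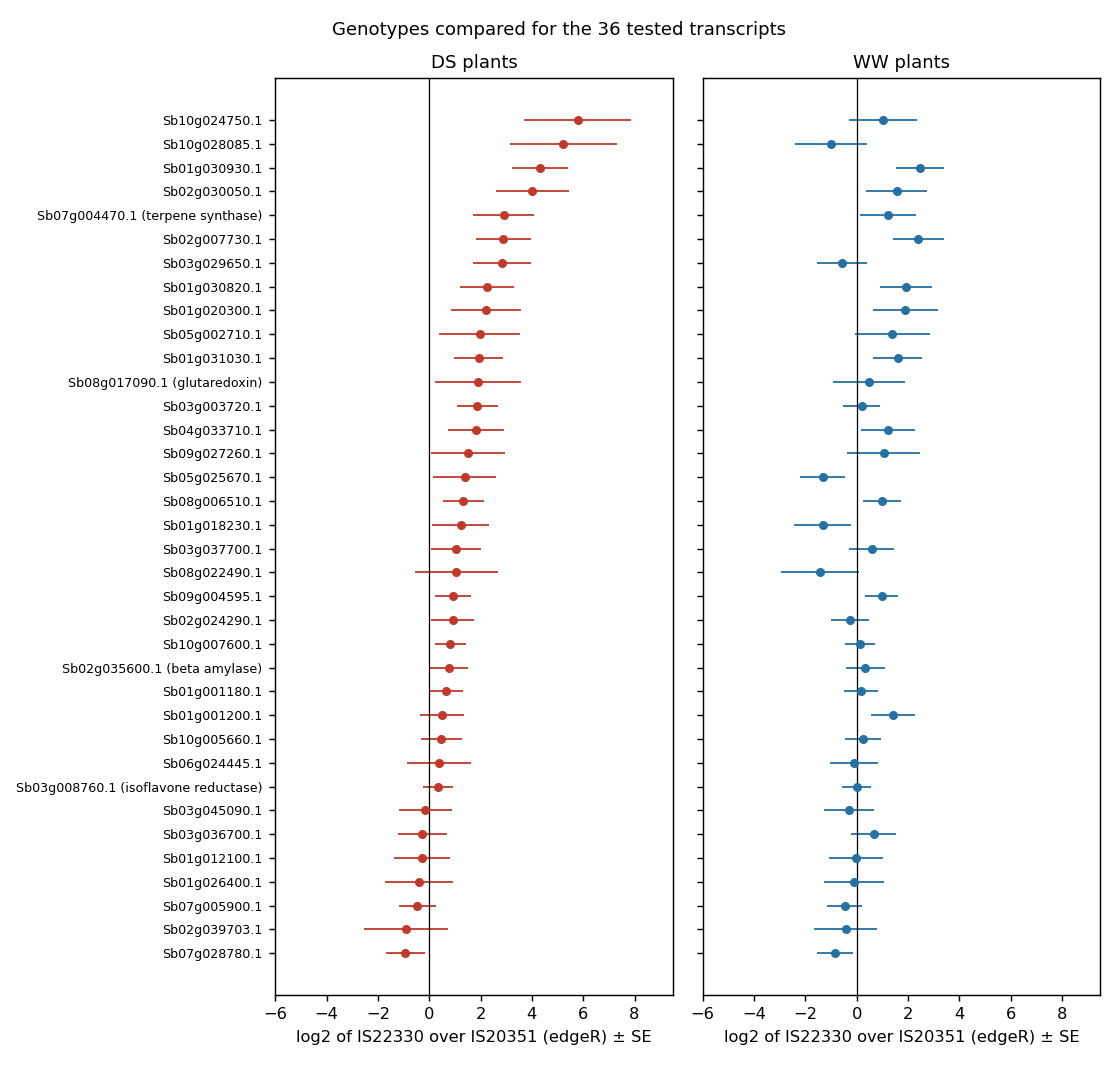
Log2 ratio of IS22330 to IS20351 with its SE for 36 members, in DS plants (left) and WW plants (right), from edgeR on all 12 libraries. In DS plants 29 points lie above 0 and in WW plants 23, and Sb01g030930.1, at 4.32 in DS plants, was the single member with an adjusted p under 0.05.

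By their identifiers, which carry the chromosome and run along it, the members lay on all 10 chromosomes, with 10 on chromosome 1 (18.3% of tested transcripts lie there) and 6 on chromosome 3 (14.8%). Sb01g001180.1 and Sb01g001200.1 had no gene model between them. On the same chromosome Sb01g030820.1, Sb01g030930.1 and Sb01g031030.1 followed one another with 11 and 8 models between. In IS22330 these 3 had their highest WW value in library a and their highest DS value in library c. This was common in the set: WW library a was the highest for 24 of the 37 and DS library c for 28.

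Gene models beside a member were tested for drought, since the rule did not choose them. There were 75 such transcripts and 1 second isoform, of which 51 passed the filter on low values. In IS22330 0 fell and 0 rose at an edgeR adjusted p under 0.05, against 0.00% and 0.00% of tested transcripts. At an unadjusted p under 0.05 there were 1 lower (5.57% of tested transcripts) and 4 higher (5.44%), and limma and DESeq2 gave 0 lower and 0 higher at an adjusted p under 0.05 as well. In IS20351 2 fell at an edgeR adjusted p under 0.05, against 2.42% of tested transcripts, and 0 rose, against 1.30%. DESeq2 and limma also had 0 higher there. Unadjusted, 12 were lower (14.2%) and 3 higher (12.6%). The median log2 ratio of the 51 was -0.26 in IS22330 and -0.65 in IS20351, against 0.01 and 0.03 over tested transcripts.

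Both transcripts that fell lie beside members that met the rule under every omission. Sb01g001220.1 follows Sb01g001200.1, so that 3 gene models in a row were lower in DS plants of IS20351. It had 29.1, 22.3 and 34.1 RPKM in DS libraries of IS20351, against 158, 228 and 125 RPKM in WW libraries (log2 ratio -2.65, SE 0.57, edgeR adjusted p = 0.0404). In IS22330 it had 42.5, 60.4 and 141 RPKM in DS libraries, against 379, 122 and 368 RPKM in WW libraries, and its log2 ratio of -1.71 (SE 0.55) had an edgeR adjusted p of 0.399. Sb09g004590.1 precedes Sb09g004595.1 and had 0.662, 1.14 and 0.551 RPKM in DS libraries of IS20351, against 2.29, 1.97 and 3.28 RPKM in WW libraries (log2 ratio -1.81, SE 0.41, edgeR adjusted p = 0.0423). Neither kept an adjusted p under 0.05 in every setting: the count of 2 was 0 without any single library of IS20351 and without WW library a or c of IS22330, 1 without WW library b of IS22330 (1.11% of tested transcripts), 6 without DS library c of IS22330 (9.26%), and 9 with DESeq2 (9.02%). In IS22330 the count of 0 was 2 without DS library c (3.02% of tested transcripts). Whether gene models this close share sequence or overlap was not tested, and the counting is not stated to use strand.

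The pathway lists of the annotation held few members. The study chose these lists on these samples, so their direction is no independent evidence, and the counts that follow leave the members out. The secondary metabolism list of 67 transcripts held 2 members, the isoflavone reductase and the terpene synthase, and of its 42 other tested transcripts 6 rose and 3 fell in DS plants of IS20351 at an edgeR adjusted p under 0.05. The antioxidant list of 18 held 1 member, the glutaredoxin, and of 17 others tested 1 rose and 0 fell. At an unadjusted p under 0.05 in edgeR 5 of these were higher and 11 lower, and at an adjusted p under 0.05 in DESeq2 4 were higher and 8 lower. The carbon metabolism list of 12 held 1, the beta amylase, and of 9 others 1 rose and 0 fell, with 4 higher and 2 lower both at an unadjusted p under 0.05 in edgeR and at an adjusted p under 0.05 in DESeq2. DESeq2 gave 11 higher and 12 lower in secondary metabolism. Over all tested transcripts 1.30% rose and 2.42% fell in edgeR, and 7.29% were higher and 9.02% lower in DESeq2. At an unadjusted p under 0.05 in edgeR 12.6% were higher and 14.2% lower.

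The photosynthesis and lipid lists held 0 members. Of 18 light reaction transcripts tested 1 rose and 2 fell in IS20351, and of 34 lipid transcripts 5 rose and 2 fell. The light reaction had 3 higher and 11 lower in DESeq2 and 1 higher and 9 lower in limma. The lipid list had 10 higher and 13 lower in DESeq2 and 3 higher and 3 lower in limma. Over all tested transcripts limma had 1.86% higher and 2.87% lower in IS20351, and DESeq2 7.29% and 9.02%. Of 9 Calvin cycle transcripts, which serve carbon fixation, 0 rose and 0 fell in edgeR. At an unadjusted p under 0.05 in edgeR 2 were higher and 6 lower (12.6% and 14.2% of tested transcripts). DESeq2 gave the same counts at an adjusted p under 0.05. In IS22330 0 of all 19022 tested transcripts had an edgeR adjusted p under 0.05, and 1035 were higher and 1059 lower at an unadjusted p under 0.05. DESeq2 gave 98 higher and 99 lower, and limma 0 and 0, at an adjusted p under 0.05 there.

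The edgeR calls of IS20351 changed with the libraries in the fit, in number more than in size: the log2 ratio of Sb03g032830.1, for example, ran over 1.79 to 2.38 and that of Sb06g029520.1 over 5.497 to 6.05 under the 12 omissions. Over all tested transcripts 248 rose and 461 fell with all 12 libraries. Leaving out any library of IS20351, or WW library a or c of IS22330, which shares in the estimate of the spread, gave 0 and 0, and so 0 in each list. Leaving out DS library c of IS22330 gave 1168 higher and 1751 lower in IS20351, and 224 higher and 572 lower in IS22330. Without that library 10 secondary metabolism transcripts were higher and 13 lower, 4 antioxidant transcripts were higher and 11 lower, 3 light reaction transcripts were higher and 14 lower, and 9 lipid transcripts were higher and 11 lower. The Calvin cycle then had 2 higher and 6 lower, and carbon metabolism 4 higher and 2 lower.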

How the data were processed

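RNA of the leaf meristem was sequenced from 3 plants of each genotype under each water treatment, 12 libraries in all. The authors aligned clean reads with SOAPaligner/SOAP2 (no more than 5 differences) to the sorghum genome of Ensembl Plants release 20. They deposited expected counts, which are the unique reads of a transcript averaged over a group, and RPKM averaged the same way. The value 0.001 stood for a library with no reads. Whole reads per library were solved from both means for 27985 of 27989 transcripts, all members among them, and this step was tested on simulated data. The edgeR 4.0.16 quasi-likelihood test (R 4.3.3, TMM, group means, all 12 libraries) was run on the 19022 transcripts that reached 1 RPKM in 3 or more libraries, with Benjamini-Hochberg adjustment. The SE is the size of the log2 ratio over the root of its F statistic. DESeq2 1.42.0, limma 3.58.1 on log2(RPKM + 0.1), RLE size factors, no RPKM minimum and omission of each library were alternatives, and shares over transcripts that met the level part of the rule were added after seeing the data. Python 3.11.15 and pandas 2.3.3 handled the tables.

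The members and lists were chosen with earlier results of these data known. Values per library are given for members named in the annotation, the 10 with the largest smaller ratio, the 5 with the highest WW level and any called between genotypes. Sb03g003720.1, Sb03g029650.1, Sb09g004595.1 and Sb10g028085.1 were added after their values were seen, as were the neighbours and other family members named. Names come from the study's annotation supplement. The RefSeq gene table matched 0 of these identifiers, so sequences and coordinates are not given here.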

Additional observations from a re-analysis of the deposited data

How the results depend on the processing

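The count of 37 transcripts became 114 at a ratio of at least 3, 3 at a ratio of at least 8 and 179 with group medians. It ran over 19 to 234 when single libraries were left out, and was 179 without WW library a and DS library c of IS22330, a setting chosen after seeing the data. It stayed within 1.5 times with a WW minimum of 2 RPKM, with TMM scaling and with no DS minimum. The count of members that differed between genotypes at the stricter thresholds remained 0 under each alternative. At an adjusted p under 0.05 with no minimum fold it was 0 in WW plants in each setting. In DS plants it was then 1 in edgeR, 5 in DESeq2, 1 in limma and 0 or 1 with single libraries left out. The log2 ratios of Sb10g024750.1 and Sb10g028085.1 between genotypes in DS plants reversed to -1.88 and -2.68 without DS library c of IS22330, which held their only IS22330 DS reads, and reached at most 7.66 and 7.91 with other libraries left out. The count of adjacent transcripts that fell in IS20351 was 1 with no RPKM minimum, 9 with DESeq2 and 0 to 6 with single libraries left out. In IS22330 it was 0 to 2 with single libraries left out. The causes were not tested. No paired analysis was possible because the deposited columns carry no replicate numbers, so the replicate block was not run. At 3 plants per group and a common biological coefficient of variation of 0.464, single genes with few DS reads are poorly resolved.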
